A study of Mus musculus with 6 samples.

Results

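Glutathione S-transferases (GSTs) were followed as transcripts in sorted mouse muscle stem cells of 2 ages. The members are the 10 genes Gstm1, Gstm2, Gstm4, Gstm5 and Gstm7 of the Mu class, Gstp1 of the Pi class, Gsta4 of the Alpha class, and Gstt1, Gstt2 and Gstt3 of the Theta class. They were chosen by gene symbol from the 12067 lines of the deposited table, and all 10 passed the filter that left 10609 genes to test. They are described by level, difference between groups, ratios within a library, gene position and upstream sequence.

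All cells came from male C57BL/6 mice and were sorted from limb muscle as CD45- CD31- Sca1- VCAM+ quiescent muscle stem cells, also called satellite cells, from which muscle fibres are repaired. After that sort they were stained with 5 uM ThiolTracker Violet, a dye that reports reduced glutathione, and sorted again. The old GSH-low group (2 libraries) and the old GSH-high group (2 libraries) are the dye-low and dye-high fractions of cells from 23-month-old mice, with 2 animals pooled in each library. The young group (2 libraries) is from 4-month-old mice, 1 animal per library, and kept every cell; its title reads GSH-all, while a further label gives its glutathione status as high. Whether the old fractions came from the same pools is not stated.

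GSTs join the thiol of glutathione to electrophiles such as lipid peroxidation products, quinones and drugs, and the conjugates are then pumped out of the cell and broken down. The cytosolic enzymes are dimers whose subunits belong to classes with distinct substrate preferences, and some subunits also bind signalling kinases. Many GST genes are known targets of NRF2, a transcription factor that binds antioxidant response elements once it escapes its inhibitor KEAP1. Muscle stem cells rest for long periods, and glutathione is the main soluble thiol that they hold against oxidants.

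Values are RPKM, reads scaled to library size and to a gene length. For the members that length was all annotated exon bases of the gene, which can exceed the transcript present. Levels of different genes therefore depend in part on it. Reads recovered from the RPKM totalled 46.9 to 68.7 M per library. The 12 satellite cell markers were all measured, and their summed level was 3172 to 3317 RPKM in old GSH-low, 3658 to 3825 in old GSH-high and 4057 to 4263 in young. Sdc4 gave the largest part of that sum, with means of 1399, 1609 and 1848 RPKM in the same order. Pax7 ran the other way, with means of 11.9, 8.37 and 7.79 RPKM. The calls among all 12 are counted below with the other marker lists. Markers of other cells were present as well, and their values stand beside the results they touch. Because these are bulk samples, fewer cells of a type and less RNA per cell cannot be told apart. Differences are log2 fold changes of RPKM + 1 from limma-trend over all 6 libraries, with their standard error (SE), and the threshold for a call was a Benjamini-Hochberg adjusted p of 0.05 over the 10609 genes. With 2 libraries in each group, the p-values rest on these few samples. Each gene has 1 spread, shared by all 3 groups and drawn toward that of genes of like level. The young libraries thus count toward the spread used between the old fractions.

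Gstm1 was by far the most abundant member and the others lay up to 2 orders of magnitude or more below it. Its mean over the 6 libraries was 322.7 RPKM, which ranked 109 among all genes, with 99.1% of genes lower. Gstp1 followed with 80.7 RPKM, Gstm2 with 32.4, Gstt1 with 21.05 and Gstm5 with 20.4. Gstm4 (3.22 RPKM), Gsta4 (2.79), Gstt3 (1.76), Gstm7 (1.601) and Gstt2 (1.12) formed a low group. The length behind the RPKM was 4156 bases for Gstt2 and 3842 for Gstt3. For the other members it ran from 1266 (Gsta4) to 1707 (Gstm4), so the places of Gstt2 and Gstt3 depend in part on it. Neighbours in this order whose ranges over the 6 libraries overlapped were Gstm2 and Gstt1, Gstt1 and Gstm5, Gstm4 and Gsta4, Gstt3 and Gstm7, and Gstm7 and Gstt2. Gstt1 exceeded Gstm5 in 4 of the 6 libraries. Summed over the 10 members, the level was 495.8 and 506.8 RPKM in old GSH-low cells, 562.0 and 538.4 in old GSH-high cells, against 452.7 and 370.2 in young. Gstm1 alone made up 63.9% to 68.0% of that sum, and the 5 Mu genes together 77.0% to 78.5%.

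**Figure D1:**
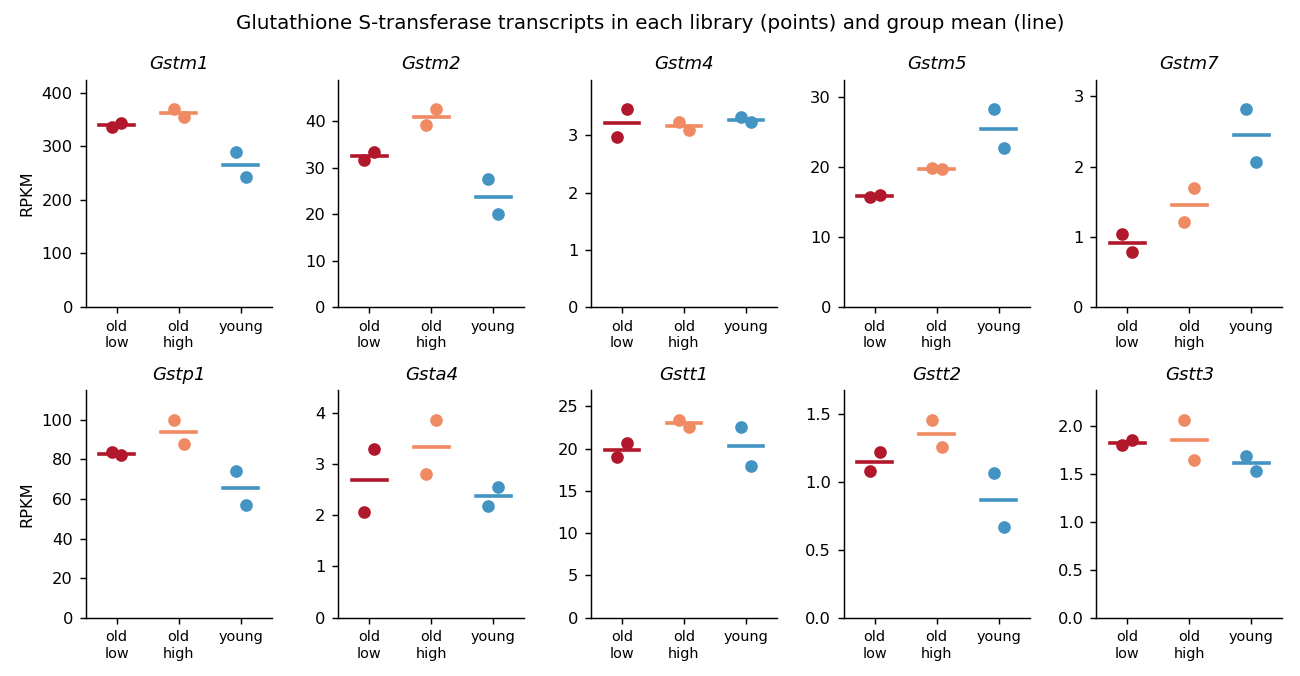
RPKM of each of the 10 members (vertical axes, each starting at 0) in old GSH-low, old GSH-high and young libraries. Points are libraries (2 per group) and lines are group means. Gstm1, Gstm2 and Gstp1 sit higher in both old groups than in young, Gstm5 and Gstm7 sit lower, and the Gstm4 libraries of all groups lie between 2.97 and 3.46 RPKM.

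The Mu genes are neighbours. On GRCm38 (GENCODE M21) the 5 members lie within 149.1 kb of chromosome 3, in the order Gstm5 (107895821 to 107898686, plus strand), Gstm7 (107926334 to 107931817), Gstm2 (107981702 to 107986453), Gstm1 (108012255 to 108017973) and Gstm4 (108040408 to 108044894), the last 4 on the minus strand. Gstm6 and Gstm3 are annotated in the same stretch and are not analysed here. The coding sequences of the 5 genes were 71.5% to 86.0% identical over their aligned bases, highest for Gstm1 and Gstm2 (86.0%) and lowest between Gstm5 and the others (71.5% to 72.3%). No 150-base stretch of Gstm1, Gstm2, Gstm4 or Gstm7 transcripts, the length of 1 untrimmed read, was found whole in another gene's transcripts. Exact reads of that length from one cannot be taken for another, while shorter, trimmed reads were not tested. For Gstm5 2.0% of such stretches lie in 4933431E20Rik, an antisense gene that overlaps its start, and no label says whether strand was kept.

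The sequence upstream of 5 members is shown because these are the genes that passed the test in at least 1 comparison, with rises and falls side by side. Each is the 250 bases before a RefSeq start site (GRCm38.p6), written 5′ to 3′ along the gene's own strand: chr3:108017974-108018223 on the minus strand for Gstm1, chr3:107986421-107986670 minus for Gstm2, chr3:107895604-107895853 plus for Gstm5, chr3:107931818-107932067 minus for Gstm7 and chr19:4037913-4038162 minus for Gstp1. Capitals mark the core of the antioxidant response element (TGACNNNGC) and the AP-1 site (TGANTCA), each searched on both strands.
Gstm1: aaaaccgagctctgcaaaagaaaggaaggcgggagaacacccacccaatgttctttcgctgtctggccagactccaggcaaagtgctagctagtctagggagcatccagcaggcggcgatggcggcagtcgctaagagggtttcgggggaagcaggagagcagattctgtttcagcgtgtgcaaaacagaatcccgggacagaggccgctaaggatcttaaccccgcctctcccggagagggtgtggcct
Gstm2: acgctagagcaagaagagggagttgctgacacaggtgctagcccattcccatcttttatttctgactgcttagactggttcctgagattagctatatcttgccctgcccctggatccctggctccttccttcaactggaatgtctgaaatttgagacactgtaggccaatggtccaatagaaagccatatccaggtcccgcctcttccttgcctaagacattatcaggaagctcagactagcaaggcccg
Gstm5: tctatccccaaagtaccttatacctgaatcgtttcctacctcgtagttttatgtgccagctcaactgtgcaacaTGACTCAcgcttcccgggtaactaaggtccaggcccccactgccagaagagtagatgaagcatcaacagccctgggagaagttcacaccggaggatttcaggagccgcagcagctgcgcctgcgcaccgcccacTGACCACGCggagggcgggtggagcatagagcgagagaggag
Gstm7: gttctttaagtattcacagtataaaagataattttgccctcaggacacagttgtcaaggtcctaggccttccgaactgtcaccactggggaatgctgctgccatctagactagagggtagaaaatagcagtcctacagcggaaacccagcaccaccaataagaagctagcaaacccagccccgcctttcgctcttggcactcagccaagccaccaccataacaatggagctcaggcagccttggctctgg
Gstp1: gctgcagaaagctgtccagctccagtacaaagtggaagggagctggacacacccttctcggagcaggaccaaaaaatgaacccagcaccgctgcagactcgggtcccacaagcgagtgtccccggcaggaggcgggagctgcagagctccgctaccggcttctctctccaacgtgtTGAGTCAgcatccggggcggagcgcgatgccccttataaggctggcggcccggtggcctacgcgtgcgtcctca
Over windows of 300 bases that also hold the first 50 bases after the start, the antioxidant response element core was in 12.4% and the AP-1 site in 7.8% of 32851 mouse promoters. RefSeq windows were found for 8 of the 10 members, and Gsta4 and Gstt2 had no entry. In Gstm5 the element core began at -42 and the AP-1 site at -176 from the start site. In Gstp1 the AP-1 site began at -74. Gstm7 has a further start site downstream of the one shown, with an element core at -129 from it, while its upstream sequence above holds no match. A further start site of Gstm1 also lies downstream of the one shown, and its sequence is not printed. Neither motif was found as these letters in the windows of Gstm1, Gstm2, Gstm4, Gstt1 or Gstt3. A match is a run of letters and shows no binding.

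The comparison of old GSH-high with young cells sets the dye-high old fraction against young cells not divided by dye, so that age and dye selection both differ and cannot be told apart. Of the 10 members 3 rose (Gstm1, Gstm2 and Gstp1), against 15.1% of all tested genes, and 2 fell (Gstm5 and Gstm7), against 13.7% of all genes. In either direction 5 of 10 members passed the test and 28.8% of all genes. The median log2 fold change of the 10 members was 0.26, beside -0.00 over all genes. Between the 2 young libraries the members already differed by a median of 0.30, beside 0.02 over all genes, with replicate 1 higher. The groups did not overlap for 8 of the 10 members, and for 66.1% of all genes.

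The comparison of old GSH-low with young cells puts the dye-low old fraction against the same young libraries. It gave 2 rises (Gstm1 and Gstm2; 18.1% of all genes rose) and 2 falls (Gstm5 and Gstm7; 18.7% of all genes fell). In either direction 4 of 10 members passed, beside 36.8% of all genes. The median of the members was 0.11 and that of all genes -0.02, and 7 of 10 members did not overlap, beside 69.1% of all genes. Both comparisons with young share those libraries, so each is given with its own values and likeness between them is not a separate result. The share of members called in old GSH-low was close to that of all genes, and the counts are not read as particular to these genes.

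Gstm1, the main liver-type Mu subunit, had 337.0 and 343.8 RPKM in old GSH-low cells, 369.0 and 354.2 in old GSH-high cells, against 289.2 and 242.7 in young libraries. All 4 old libraries lay above both young libraries. Gstm1 rose by 0.45 ± 0.10 (SE; adjusted p = 0.0122) in old GSH-high and by 0.36 ± 0.10 (adjusted p = 0.0243) in old GSH-low against young. On the RPKM scale the mean was 1.36 times in old GSH-high and 1.28 times in old GSH-low that of young, which was 266.0 ± 32.9 RPKM (SD, n = 2). Leaving out either old GSH-high library ended the first call (adjusted p = 0.101 for replicate 1 and 0.0600 for replicate 2), and leaving out either old GSH-low library ended the second (0.110 and 0.117). The second also missed the threshold without young replicate 2 (adjusted p = 0.0505), without either old GSH-high library (adjusted p = 0.0514 and 0.0512) and with the 4 compared libraries alone (adjusted p = 0.0514).

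Gstm2, its closest relative in coding sequence, had 31.6 and 33.4 RPKM in old GSH-low cells, 39.2 and 42.6 in old GSH-high cells, against 27.5 and 19.96 in young. The 3 groups did not overlap, with old GSH-high highest. Gstm2 rose by 0.78 ± 0.14 in old GSH-high (adjusted p = 0.00338), to 40.9 ± 2.36 RPKM against 23.7 ± 5.36 in young (SD, n = 2 each). Against young it rose by 0.45 ± 0.14 in old GSH-low (adjusted p = 0.0295). The rise in old GSH-high was called in all 16 alternatives. The smaller rise in old GSH-low lost its call without young replicate 2 (0.23, adjusted p = 0.0739) and without either library of its own group (0.0898 for replicate 1 and 0.125 for replicate 2).

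Gstm5, a Mu subunit known from brain and testis, ran the other way. It had 15.7 and 16.1 RPKM in old GSH-low cells, 19.8 and 19.7 in old GSH-high cells, against 28.2 and 22.7 in young. The order was young, old GSH-high, old GSH-low with no overlap, and the old replicates lay close together while the young ones did not. Gstm5 fell by 0.64 ± 0.11 in old GSH-low (log2 fold change -0.64, adjusted p = 0.00197), a call kept in all 16 alternatives. In old GSH-high it changed by -0.34 ± 0.11 (adjusted p = 0.0414), a call that ended in 8 of the 16, with adjusted p of 0.138 without young replicate 1, 0.168 and 0.155 with either old GSH-high library left out, 0.0670 and 0.0672 with either old GSH-low library left out, 0.0694 with library size only, 0.0666 with the 4 compared libraries alone and 0.0623 with the replicate number as a block.

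Gstm7, a less studied Mu gene, had the largest fall of the members on the fitted scale. It had 1.03 and 0.778 RPKM in old GSH-low cells, 1.21 and 1.70 in old GSH-high cells, against 2.82 and 2.07 in young. These values rest on few reads: 85 and 60 in old GSH-low cells, 134 and 168 in old GSH-high cells, against 274 and 195 in young. Gstm7 changed by -0.85 ± 0.14 in old GSH-low (adjusted p = 0.0023, called in all 16 alternatives) and by -0.49 ± 0.14 in old GSH-high (adjusted p = 0.0346) against young. Since the added 1 shrinks changes of low genes, the ratios of mean RPKM to young were lower than these values imply, at 0.371 for old GSH-low and 0.594 for old GSH-high. Replicate 1 decided the call in old GSH-high, with adjusted p of 0.176 when that of young and 0.220 when that of old GSH-high was left out.

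Gstm4, at the far end of the cluster, had 2.97 and 3.46 RPKM in old GSH-low cells, 3.23 and 3.10 in old GSH-high cells, against 3.33 and 3.23 in young. The groups overlapped in every comparison. Its difference from young was -0.03 in old GSH-low (95% interval -0.24 to 0.19, adjusted p = 0.859) and -0.04 in old GSH-high (-0.26 to 0.18, adjusted p = 0.794).

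**Figure D2:**
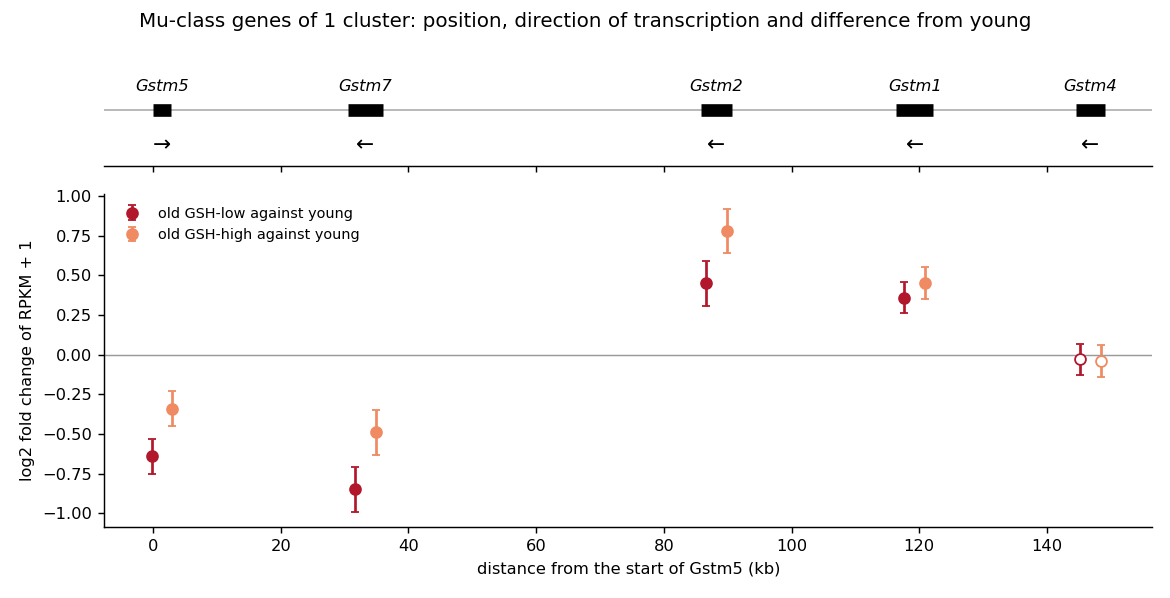
The upper strip shows the 5 Mu genes to scale by distance from the start of Gstm5 (kb), with arrows for the direction of transcription. Below, at each gene, are its log2 fold changes of RPKM + 1 against young for old GSH-low and old GSH-high, with bars for the SE and filled points for adjusted p under 0.05; Gstm5 and Gstm7, at one end, fell by 0.34 to 0.85, Gstm2 and Gstm1 rose by 0.36 to 0.78, and Gstm4 lay at -0.04 and -0.03.

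Ratios between transcripts of one library do not depend on library size. The ratio of Gstm2 to Gstm5 was 2.01 and 2.08 in old GSH-low cells, 1.98 and 2.16 in old GSH-high cells, against 0.975 and 0.879 in young. In every old library Gstm2 thus stood above Gstm5, and in both young libraries below it. The ratio of Gstm1 to Gstm5 was 21.5 and 21.4 in old GSH-low cells, 18.6 and 18.0 in old GSH-high cells, against 10.2 and 10.7 in young, again with no overlap. By contrast the ratio of Gstm1 to Gstm2, 10.7 and 10.3 in old GSH-low cells, 9.40 and 8.32 in old GSH-high cells, against 10.5 and 12.2 in young, overlapped between old GSH-low and young. These ratios combine members whose differences are given above, and carry no test of their own.

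**Figure D3:**
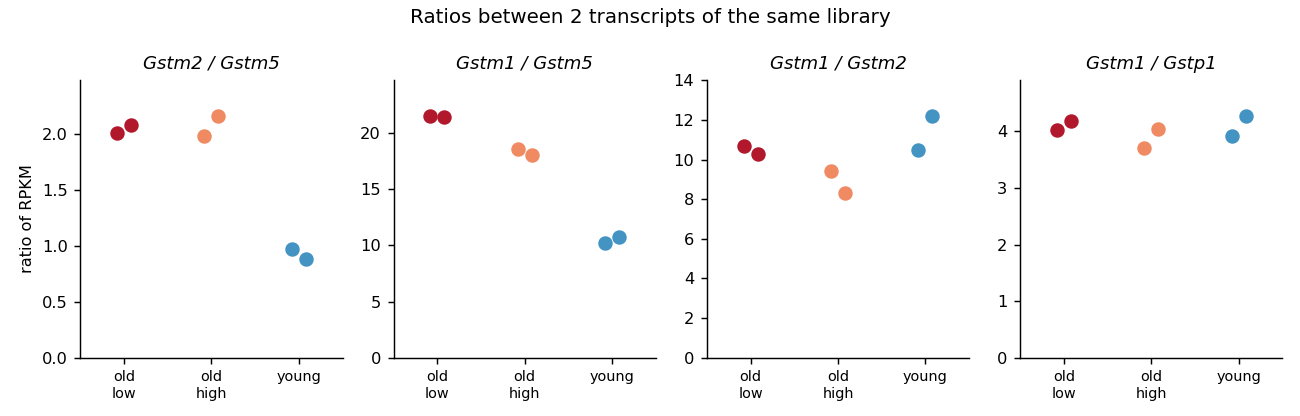
Ratios of RPKM between pairs of transcripts of the same library (vertical axes from 0), by group, with 1 point per library. The ratios to Gstm5 are higher in all 4 old libraries than in both young ones, while the ratio of Gstm1 to Gstp1 stays between 3.70 and 4.27 in all 6.

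Gstp1, the Pi subunit, which also binds the stress kinase JNK, lies on chromosome 19 (4035407 to 4037985, minus strand). It had 83.6 and 82.2 RPKM in old GSH-low cells, 99.8 and 87.7 in old GSH-high cells, against 74.0 and 56.8 in young. All old libraries lay above the young ones. Gstp1 rose by 0.52 ± 0.13 in old GSH-high (adjusted p = 0.0155), with an adjusted p of 0.124 once replicate 1 of that group was left out. In old GSH-low the difference from young was 0.35 ± 0.13 and just missed the threshold (adjusted p = 0.0592). It was called there in 5 of 17 alternatives, with adjusted p of 0.0266 with library size only, 0.0445 with limma-voom, 0.0449 with the replicate block, 0.0424 with the crossed block and 0.00523 without young replicate 1.

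Its neighbour Gstp2, which is not a member, shares sequence with it: 17.6% of the 150-base stretches of Gstp1 and 35.7% of those of Gstp2 occur whole in another gene, mostly the other of the pair. The counts of the pair are therefore uncertain. Gstp2 had 19.9 and 18.0 RPKM in old GSH-low cells, 23.3 and 21.5 in old GSH-high cells, against 15.9 and 14.3 in young, and rose by 0.31 ± 0.09 in old GSH-low (adjusted p = 0.0331) and by 0.54 ± 0.09 in old GSH-high (adjusted p = 0.00345) against young. The old GSH-low call ended in 7 of 16 alternatives, with adjusted p of 0.0929 without young replicate 2, 0.215 without old GSH-low replicate 1, 0.0571 without replicate 2, 0.0590 and 0.0589 without either old GSH-high library, 0.0707 with limma-voom and 0.0588 with the 4 compared libraries alone. The ratio of Gstp2 to Gstp1 was between 0.215 and 0.252 in all 6 libraries. With the pair merged into 1 gene, the number of members called in each comparison stayed at 0, 5 and 4.

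Gsta4, the Alpha subunit best known for conjugating 4-hydroxynonenal, an aldehyde of lipid peroxidation, lies on chromosome 9 (78182774 to 78209349, plus strand). It had 2.06 and 3.30 RPKM in old GSH-low cells, 2.81 and 3.85 in old GSH-high cells, against 2.18 and 2.55 in young. Its old replicates differed more than its groups did, and no comparison passed: the difference from young was 0.11 ± 0.17 in old GSH-low (95% interval -0.29 to 0.50, adjusted p = 0.65) and 0.35 ± 0.17 in old GSH-high (-0.04 to 0.75, adjusted p = 0.159).

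The Theta genes, of a class that acts on small halogenated compounds and hydroperoxides, are also neighbours, within 63.3 kb of chromosome 10: Gstt3 (75774115 to 75781414), Gstt1 (75783813 to 75798584) and Gstt2 (75831114 to 75837424), all on the minus strand. None of the 3 passed the test in any comparison. Gstt1 had 19.0 and 20.7 RPKM in old GSH-low cells, 23.4 and 22.6 in old GSH-high cells, against 22.6 and 18.0 in young; the young libraries spanned those of old GSH-low. Its difference from young was -0.02 in old GSH-low (95% interval -0.27 to 0.23, adjusted p = 0.899) and 0.18 in old GSH-high (-0.07 to 0.44, adjusted p = 0.255). Without young replicate 1, the higher of the pair, the old GSH-high difference was called (adjusted p = 0.0328).

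Gstt2 had 1.08 and 1.22 RPKM in old GSH-low cells, 1.46 and 1.26 in old GSH-high cells, against 1.06 and 0.672 in young. Every old library was above both young ones, by little in old GSH-low. The difference from young was 0.21 ± 0.12 in old GSH-low (adjusted p = 0.216) and 0.34 ± 0.12 in old GSH-high (adjusted p = 0.0699). The old GSH-high difference was called with limma-voom (0.68, adjusted p = 0.044) and without young replicate 1 (adjusted p = 0.0287). Gstt3 had 1.79 and 1.85 RPKM in old GSH-low cells, 2.06 and 1.65 in old GSH-high cells, against 1.68 and 1.53 in young, with differences from young of 0.11 in old GSH-low (adjusted p = 0.424) and 0.13 in old GSH-high (adjusted p = 0.409). Of its 150-base stretches 9.6% lie in the overlapping gene Gm20441.

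Old GSH-low cells were set against old GSH-high cells to ask what differs with glutathione content at one age, and there no member passed the test. Of all genes 5.38% did. The members with the lowest adjusted p were Gstm2 (-0.32 ± 0.14, adjusted p = 0.243), Gstm5 (-0.30 ± 0.11, adjusted p = 0.166) and Gstm7 (-0.36 ± 0.14, adjusted p = 0.222). Limma-voom on the recovered reads called none either. For 9 of the 10 members the log2 fold change was below 0, as for 52.6% of all genes, and 7 of 10 did not overlap between the fractions, as for 55.5% of all genes. The exception in sign was Gstm4, at 0.01. The median over the members was -0.19, beside -0.01 over all genes.

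Between the fractions the 2 most abundant members did not pass, with Gstm1 differing by -0.09 (95% interval -0.32 to 0.15, adjusted p = 0.707) and Gstp1 by -0.17 (-0.46 to 0.12, adjusted p = 0.512). Gsta4 differed by -0.25 (adjusted p = 0.496), Gstt1 by -0.20 (adjusted p = 0.37), Gstt2 by -0.13 (adjusted p = 0.629) and Gstt3 by -0.01 (adjusted p = 0.971). Gstm2 and Gstm5 were called when the young libraries were left out of the fit (adjusted p = 0.0394 and 0.0367), and likewise with 1 young library left out, whether replicate 1 (0.0393 and 0.0355) or replicate 2 (0.0391 and 0.0354).

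**Figure D4:**
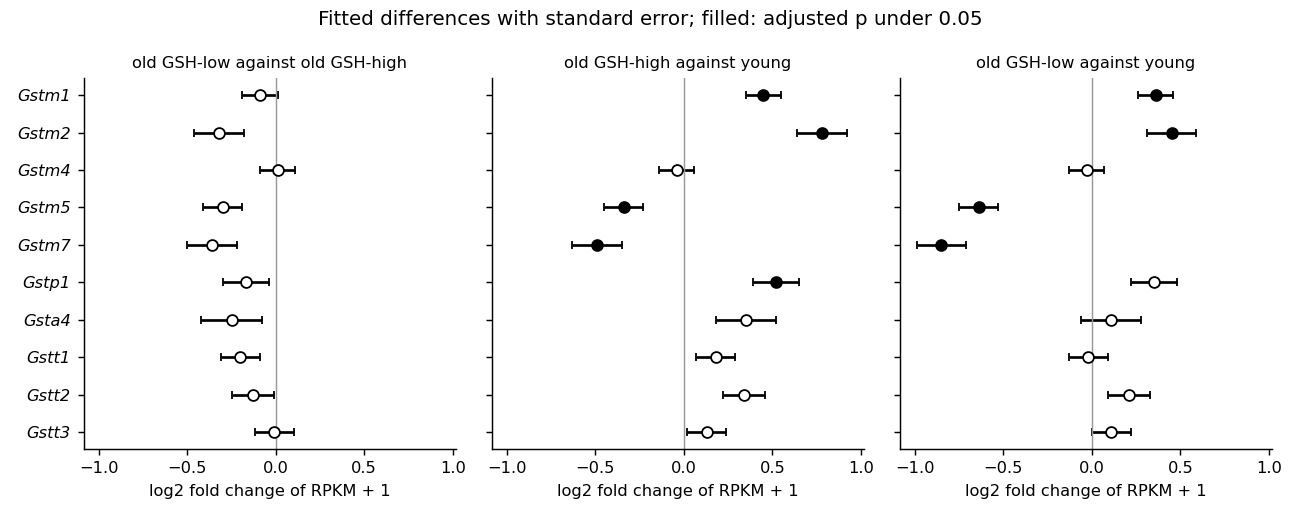
Log2 fold changes of RPKM + 1 (horizontal axes) of the 10 members in each of the 3 comparisons, with bars for the SE and filled points for adjusted p under 0.05. No point is filled for old GSH-low against old GSH-high, where 9 of 10 lie below 0; 5 are filled for old GSH-high and 4 for old GSH-low against young.

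Markers of other cell types moved with the same groups. Tenocyte markers summed to 2702 to 3094 RPKM in old GSH-low, 648.3 to 818.6 in old GSH-high and 37.1 to 39.0 in young; all 11 rose in old GSH-low against old GSH-high and against young, and 10 of 11 in old GSH-high against young. Markers of fibro-adipogenic progenitors summed to 1826 to 1988 RPKM in old GSH-low, 1204 to 1337 in old GSH-high and 742.5 to 791.7 in young. Gsn alone gave the largest part of this sum, with means of 902.6, 758.2 and 637.7 RPKM in that order. Pdgfra had means of 1.32, 1.25 and 0.231 RPKM. Of the 16, the fractions differed in 6 (4 higher and 2 lower in old GSH-low). Against young, 14 rose and 1 fell in old GSH-high, and 13 rose and 2 fell in old GSH-low. No marker of these lists was at 0 in any group. Endothelial markers summed to 25.3 to 30.6 RPKM in old GSH-low, 112.1 to 112.3 in old GSH-high and 46.9 to 56.6 in young; of 14, 13 fell between the fractions, 13 rose in old GSH-high against young and 9 fell in old GSH-low against young. Their part in the differences of the GST genes was not tested.

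The smaller lists varied likewise. Fat cell markers, of which 4 of 8 were in the table, summed to 2.21 to 3.34 RPKM in old GSH-low, 48.9 to 69.8 in old GSH-high and 0.365 to 0.405 in young, where 3 of them (Cfd, Cidec and Adipoq) were at 0 in 1 library; of 3 tested, all fell between the old fractions, all rose in old GSH-high against young and 2 rose in old GSH-low against young. Lymphocyte markers summed to 14.2 to 16.8, 1.98 to 2.24 and 1.03 to 1.04 RPKM in old GSH-low, old GSH-high and young. Ms4a1 had 0 reads in 1 or more libraries of old GSH-high, and 3 markers, Ms4a1 among them, did in young. Of 4 tested, 4, 1 and 4 rose in the 3 comparisons. The order taken is old GSH-low against old GSH-high, old GSH-high against young and old GSH-low against young. In that same order, of 5 macrophage markers 1, 5 and 5 rose and 1, 0 and 0 fell, of 8 smooth muscle and pericyte markers 4, 6 and 5 rose and 0, 1 and 1 fell, of 7 myofibre markers 6, 1 and 5 rose and 0, 2 and 1 fell, and of 6 Schwann cell markers 2, 3 and 5 rose and 1, 0 and 0 fell. Of the 12 satellite cell markers 1, 1 and 2 rose and 0, 4 and 5 fell. Over all genes 3.69%, 15.1% and 18.1% rose and 1.69%, 13.7% and 18.7% fell, again in that order. The 9 smooth muscle and pericyte markers in the table nevertheless summed highest in young, at 186.2 to 195.2 RPKM. Their sum was 157.9 to 162.1 RPKM in old GSH-low and 140.4 to 161.8 in old GSH-high. For these lists too, a part in the GST differences was not tested.

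Other enzymes of the GST superfamily and of the related membrane family (MAPEG) were also measured. Of 24 listed, 11 were in the table and 9 tested; 4 rose in each old group against young (15.1% of all genes rose in old GSH-high and 18.1% in old GSH-low), none fell, and none passed between the old fractions. Mgst1, a microsomal GST with peroxidase activity, had 20.9 and 16.0 RPKM in old GSH-low cells, 23.1 and 18.0 in old GSH-high cells, against 8.80 and 7.54 in young. It rose by 1.08 ± 0.15 in old GSH-low (adjusted p = 0.000823) and by 1.22 ± 0.15 in old GSH-high (adjusted p = 0.00053), beside a largest rise of 0.78 among the 10 members. Ptges, the microsomal prostaglandin E synthase, rose by 1.09 ± 0.11 in old GSH-low and by 1.26 ± 0.11 in old GSH-high, where the added 1 shrinks the change of a low gene: its mean RPKM was 4.39 and 5.21 times that of young. Gstp3 had 1.74 and 2.15 RPKM in old GSH-low cells, 1.40 and 2.08 in old GSH-high cells, against 0.562 and 0.0750 in young, where it had 31 and 4 reads. It rose by 1.18 ± 0.19 in old GSH-low and by 1.07 ± 0.19 in old GSH-high, and by 3.13 and 2.95 with limma-voom. Gsto1, an Omega-class enzyme, had 53.2 and 53.2 RPKM in old GSH-low cells, 60.03 and 57.39 in old GSH-high cells, against 58.9 and 49.5 in young, and Gstk1, a mitochondrial enzyme, differed from young by 0.27 in old GSH-low (adjusted p = 0.113) and by 0.30 in old GSH-high (adjusted p = 0.096), and was called in both without young replicate 1 (adjusted p = 0.012 and 0.0126).

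Of 12 tested genes that make and reduce the glutathione these enzymes use, 8 rose and 1 fell in old GSH-high against young (median 0.45), beside 15.1% of all genes higher and 13.7% lower. In old GSH-low 7 rose and 2 fell (median 0.33), beside 18.1% and 18.7% of all genes; none passed between the fractions (median -0.14). Gclc, the catalytic subunit of the rate-limiting ligase, had 56.8 and 51.3 RPKM in old GSH-low cells, 65.2 and 52.2 in old GSH-high cells, against 38.9 and 38.9 in young. It rose by 0.46 ± 0.11 in old GSH-low (adjusted p = 0.0128; 0.101 without replicate 1 of that group) and by 0.57 ± 0.11 in old GSH-high (adjusted p = 0.00609; 0.0615 without replicate 1 of that group). Gclm, the modifier subunit, rose by 0.26 ± 0.08 (adjusted p = 0.0417) and 0.49 ± 0.08 (adjusted p = 0.00313) in old GSH-low and old GSH-high; the smaller rise was called in 9 of 16 alternatives, and its adjusted p was 0.259 without old GSH-low replicate 1, 0.0798 without replicate 2, 0.0771 without young replicate 2, 0.0889 and 0.0886 without either old GSH-high library, 0.0885 with the 4 compared libraries alone and 0.0708 with the replicate block. Gsr, which reduces oxidised glutathione, rose by 0.38 ± 0.11 in old GSH-high (adjusted p = 0.0298) and differed by 0.24 ± 0.11 in old GSH-low (adjusted p = 0.112). The Gsr call ended without any 1 of the 4 libraries compared (adjusted p 0.0518 to 0.2), and a call appeared in old GSH-low without its replicate 2 (adjusted p = 0.0462). Cbs, which starts cysteine synthesis from homocysteine, rose by 0.87 ± 0.11 in old GSH-low and by 1.01 ± 0.11 in old GSH-high. Slc7a11, the cystine carrier, had 0.353 and 0.379 RPKM in old GSH-low cells, 0.726 and 0.680 in old GSH-high cells, against 1.36 and 1.18 in young. It fell by 0.73 ± 0.10 in old GSH-low (adjusted p = 0.00069) and by 0.41 ± 0.10 in old GSH-high (adjusted p = 0.0154), and by 1.79 and 0.85 with limma-voom, which also called its difference between the fractions (-0.94, adjusted p = 0.00714). In old GSH-high the Slc7a11 call was lost without young replicate 1 (adjusted p = 0.0821) and without either library of that group (0.0696 and 0.0809).

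Peroxidases and glutaredoxins spend glutathione on peroxides and on protein disulfides. Of 9 tested, 3 fell in old GSH-high (median -0.24; 13.7% of all genes fell) and 4 in old GSH-low (median -0.30; 18.7%) against young. None passed as higher, where 15.1% and 18.1% of all genes did, and none passed between the fractions. Gpx3, the secreted peroxidase, differed from young by 0.11 in old GSH-low (adjusted p = 0.473) and by 0.24 in old GSH-high (adjusted p = 0.154). Gpx7, a peroxidase of the endoplasmic reticulum, fell by 0.91 ± 0.18 in old GSH-low (adjusted p = 0.00504) and by 1.07 ± 0.18 in old GSH-high (adjusted p = 0.003). Glrx5, a mitochondrial glutaredoxin, fell by 0.50 ± 0.12 in old GSH-low (adjusted p = 0.0139) and by 0.39 ± 0.12 in old GSH-high (adjusted p = 0.0424). Both Glrx5 calls ended without young replicate 1 (adjusted p = 0.0582 and 0.179), the one in old GSH-low without its replicate 1 (0.114), and the one in old GSH-high without either library of that group (0.116 and 0.188), with the replicate block (0.0687) or with library size only (0.0689).

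Genes for export and breakdown of glutathione conjugates were mixed. Of 14 tested, 4 rose and 1 fell in old GSH-high against young, beside 15.1% and 13.7% of all genes. In old GSH-low 3 rose and 2 fell against young, beside 18.1% and 18.7% of all genes. In either direction 36.8% of all genes were called there, and this count is not read as particular to the list. In old GSH-low against old GSH-high 2 rose, beside 3.69% of all genes. Dpep1, a dipeptidase that cleaves the conjugates, had 6.21 and 4.48 RPKM in old GSH-low cells, 9.38 and 7.36 in old GSH-high cells, against 1.22 and 1.07 in young, which rose by 1.55 ± 0.15 in old GSH-low and by 2.12 ± 0.15 in old GSH-high. Anpep, an aminopeptidase, had 1.57 and 1.41 RPKM in old GSH-low cells, against 0.846 and 0.614 in old GSH-high cells. It rose by 0.53 ± 0.11 in old GSH-low against old GSH-high (adjusted p = 0.0261). Anpep missed the threshold when replicate 2 of old GSH-high was left out (adjusted p = 0.208), when either old GSH-low library was (0.166 and 0.0827), and with 0.1 in place of 1 added to the RPKM (0.95, adjusted p = 0.0834).

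Other detoxifying enzymes changed in both directions. Of 30 tested, 15 rose and 5 fell in old GSH-high against young (median 0.30), beside 15.1% and 13.7% of all genes. In old GSH-low 13 rose and 9 fell against young (median 0.17), beside 18.1% and 18.7% of all genes. Between the fractions 3 fell in old GSH-low against old GSH-high (median -0.13), beside 1.69% of all genes. Aldh3a1, an aldehyde dehydrogenase, had 15.3 and 15.1 RPKM in old GSH-low cells, 20.3 and 19.6 in old GSH-high cells, against 4.20 and 4.39 in young. It rose by 1.61 ± 0.08 in old GSH-low and by 1.99 ± 0.08 in old GSH-high against young, and fell by 0.37 ± 0.08 in old GSH-low against old GSH-high (adjusted p = 0.0321). The last call ended without any 1 of the 4 old libraries (adjusted p 0.182 to 0.248) and with the replicate block (adjusted p = 0.0855). Adh1, an alcohol dehydrogenase, rose by 1.5 ± 0.10 in old GSH-low and by 1.64 ± 0.10 in old GSH-high. Cyp1b1, a cytochrome P450, had 2.37 and 2.37 RPKM in old GSH-low cells, 2.02 and 1.66 in old GSH-high cells, against 0.110 and 0.207 in young. It rose by 1.54 ± 0.11 in old GSH-low and by 1.29 ± 0.11 in old GSH-high; at these low levels the added 1 shrinks the change, and the means were 15.0 and 11.6 times that of young, with 3.96 and 3.6 on the log2 scale from limma-voom. Fmo2, a flavin-containing monooxygenase, had 1.47 and 0.785 RPKM in old GSH-low cells, against 3.04 and 2.75 in old GSH-high cells, and fell by 0.89 ± 0.16 in old GSH-low against old GSH-high (adjusted p = 0.013). Its adjusted p was 0.0788 and 0.0516 without either old GSH-high library and 0.0632 without old GSH-low replicate 2. Cyp2e1, a cytochrome P450 of liver and fat, had 0.0903 and 0.0963 RPKM in old GSH-low and 3.33 and 1.75 in old GSH-high, a fall of 1.66 ± 0.18 (adjusted p = 0.000965) beside the falls of the fat cell markers given above.

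**Figure D5:**
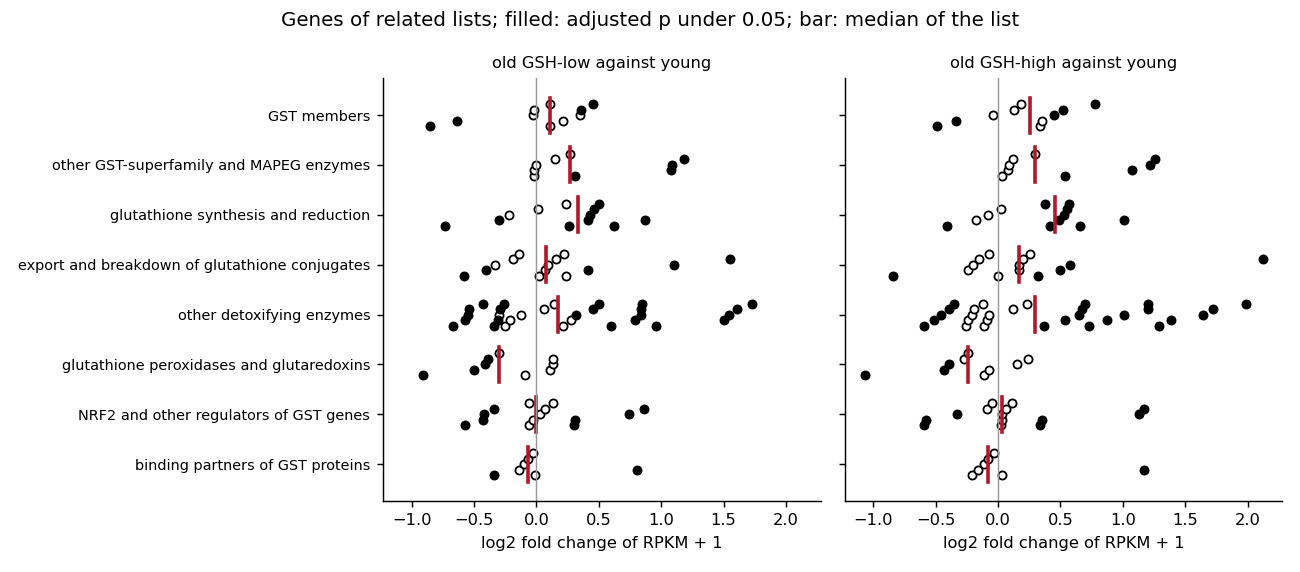
Log2 fold changes of RPKM + 1 against young (horizontal axes) for the 10 members and the tested genes of 7 related lists, for old GSH-low on the left and old GSH-high on the right. Each point is a gene, filled where the adjusted p was under 0.05, and red bars are list medians; medians are above 0.2 in both panels for glutathione synthesis and for the other GST-superfamily enzymes, and below -0.2 for the peroxidases and glutaredoxins.

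Among the regulators of GST genes, Nfe2l2, which encodes NRF2, had 79.4 and 78.2 RPKM in old GSH-low cells, 80.5 and 80.8 in old GSH-high cells, against 64.6 and 62.4 in young. It rose by 0.31 ± 0.08 in old GSH-low (adjusted p = 0.0143) and by 0.34 ± 0.08 in old GSH-high (adjusted p = 0.0116). Without replicate 1 or 2 of its old group, the first call ended (adjusted p = 0.103 and 0.0712), and so did the second (adjusted p = 0.0964 and 0.0888). Keap1 differed from young by 0.13 in old GSH-low (adjusted p = 0.389) and by 0.03 in old GSH-high (adjusted p = 0.863). Bach1, a repressor that competes for antioxidant response elements, fell by 0.57 ± 0.10 in old GSH-low (adjusted p = 0.00299) and by 0.58 ± 0.10 in old GSH-high (adjusted p = 0.00367), and Maff, a small MAF partner, fell by 0.43 ± 0.08 in old GSH-low and by 0.59 ± 0.08 in old GSH-high. Hmox1, haem oxygenase 1 and a classic target of this pathway, had 1084 and 1020 RPKM in old GSH-low cells, 1493 and 1337 in old GSH-high cells, against 659.9 and 597.3 in young, and rose by 0.74 ± 0.10 in old GSH-low and by 1.17 ± 0.10 in old GSH-high. Between the old fractions Hmox1 differed by -0.43 ± 0.10 (adjusted p = 0.0542), and it was called in 6 of 16 alternatives, among them those that left out a young library (adjusted p = 0.0219 for replicate 1 and 0.0221 for replicate 2). Srxn1, of the same list, did not rise with Hmox1. Its difference from young was -0.42 ± 0.10 in old GSH-low (adjusted p = 0.0108) and -0.05 ± 0.10 in old GSH-high (adjusted p = 0.723). Ahr, the aryl hydrocarbon receptor, rose by 0.86 ± 0.13 in old GSH-low and by 1.13 ± 0.13 in old GSH-high. Of the 14 tested genes of this list 4 rose and 3 fell in old GSH-high, beside 15.1% and 13.7% of all genes. There were 4 rises and 4 falls in old GSH-low, beside 18.1% and 18.7% of all genes, and no call between the fractions.

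Of 7 tested genes of proteins known to bind GST subunits, 1 passed the test in old GSH-high, where it rose, beside 28.8% of all genes. In old GSH-low 1 rose and 1 fell against young, beside 36.8% of all genes called, and none passed between the fractions. Counts this near the share of all genes are not read as particular to the list. Tgm2, tissue transglutaminase, rose by 0.81 ± 0.12 and 1.17 ± 0.12 in old GSH-low and old GSH-high. Prdx6, a peroxiredoxin that GSTP1 recharges with glutathione, fell by 0.34 ± 0.09 in old GSH-low (adjusted p = 0.021), with adjusted p of 0.0600 without young replicate 1, and 0.143 and 0.0596 without either old GSH-low library.

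Genes with the most similar pattern were sought by the root-mean-square (RMS) difference of centred log2(RPKM + 1) over the 6 libraries, among 10322 candidates. For Gstm1 these were Galm (RMS 0.037), Trp53rka (0.038) and Mzt2 (0.040), with Gstp1 at rank 34 (0.065). For Gstm5 they were Pdcd6 (0.030), F8a (0.032) and Esd (0.037). Gstm2 was most like Vcan (0.103), Epdr1 (0.106) and Fdx1 (0.112), with Gstp1 at rank 21 and Gstm1 at rank 42. Gstm7 was most like Il15ra (0.1), Plet1 (0.103) and Ntf3 (0.103), with Gstm5 at rank 34 (0.138). The added 1 shrinks the changes of low genes, so that likeness on this scale need not hold for ratios of RPKM. Galm had means of 1.37 RPKM in old GSH-high and 0.718 in young, and Vcan 2.62 and 1.06. These ranks are a description over 6 libraries of 3 groups.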

How the data were processed

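The 6 libraries, 2 per group, were made from RNA primed with oligo(dT), and a NextSeq 500 read 150 bases of 1 end, per the labels' protocols. Tools named in the submitters' processing notes are STAR, Trim Galore, Subread with featureCounts, and edgeR, without versions; the build is GRCm38 (mm10). The authors deposited 1 table of RPKM for 12067 genes.

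The groups were read from the titles. The RPKM values came out as whole read numbers for 12066 genes (99.99%) within 0.02 reads plus a relative 3e-07, which gave 46.9 to 68.7 M reads per library; 230 values in 144 genes, no member among them, were read as zeros that had been replaced. The filter asked for 1 RPKM or more in at least 2 libraries, which kept 10609 genes and removed 1458. Values were fitted as log2(RPKM + 1) with limma-trend (limma 3.58.1, R 4.3.3) in a means model of the 3 groups, two-sided; 3 degrees of freedom remained among the 6 libraries. A count model had been planned for a table of counts, and the plan for normalised values was used because the file holds RPKM. Adjusted p-values are Benjamini-Hochberg values over all genes tested.

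The members and the lists were chosen with earlier results of these data known. There were 7 lists of related pathways and 10 of cell type markers. Named are all 10 members, up to 4 genes past the test per list and comparison in order of p, and 8 genes whatever their p (Nfe2l2, Keap1, Gclc, Gclm, Gsr, Mgst1, Gsto1 and Gstk1); the text gives part of these, and some are not reported here. Genes similar in pattern were the 3 nearest to Gstm1 and to the members with the lowest p. Positions and transcripts are from GENCODE M21, and promoter windows from RefSeq (GRCm38.p6). The test was run on simulated data with the same spread for all genes, to check signs and the recovery of large changes. That check set no bound on false calls or on changes as small as those of the members. Alternatives were other scalings, filters and pseudocounts, limma-voom on the recovered reads, fits of the 4 compared libraries, leaving out 1 library at a time, and the replicate number as a block. Merging Gstp1 with Gstp2, and a crossed block, were added after the data were seen. Python 3.11.15 with pandas 2.3.3, numpy 2.4.6, Biopython 1.88 and matplotlib 3.10.9 served for sequences and figures. Whether libraries of a group came from separate preparations beyond their animals is not stated.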

Additional observations from a re-analysis of the deposited data

How the results depend on the processing

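Of 483 member values recomputed under the alternatives, 447 stayed on their side of the threshold, 22 calls ended, 14 appeared, and no called value changed sign. Of 1863 values of the other named genes, 1754 stayed, 70 calls ended, 39 appeared and none changed sign with a call. With the 4 compared libraries alone, 864 genes and 2 members were called in old GSH-low against old GSH-high, against 571 and 0. Leaving out 1 library at a time gave 312 to 863 genes and 0 to 2 members in that comparison, 1493 to 3802 genes and 1 to 5 members in old GSH-high against young (3051 and 5), and 2068 to 4295 genes and 2 to 5 members in old GSH-low against young (3901 and 4). The lowest member counts were 1 without old GSH-high replicate 1, and 2 without young replicate 2 or either old GSH-low library. Limma-voom on the recovered reads called 641, 3375 and 3951 genes.

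Deviations of same-numbered libraries correlated at 0.0695 between the old fractions, -0.142 between old GSH-high and young and -0.263 between old GSH-low and young, so the numbers were not taken to pair the samples. With a replicate block the member counts were 0, 4 and 5, and 479, 2559 and 3350 genes were called. With the young numbers crossed they were 0, 5 and 5 members and 800, 3805 and 4538 genes. Other scalings moved the median of all genes by less than 0.1 on the log2 scale. The 2 libraries per group, and few reads in Gstm7, limit the precision. The causes of these changes were not tested.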

Other observations

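Within the young group, 9 of the 10 members were higher in replicate 1 than in replicate 2, with a median log2 difference of 0.30, while over all tested genes the median was 0.02 and 54.1% were higher. In the old groups 2 of 10 members were higher in replicate 1 for old GSH-low (median -0.06) and 7 of 10 for old GSH-high (median 0.05). The median absolute difference between replicates was 0.09 for old GSH-low, 0.12 for old GSH-high and 0.30 for young over the members, beside 0.09, 0.08 and 0.14 over all genes. The exception in young was Gsta4, with 2.18 RPKM in replicate 1 and 2.55 in replicate 2. Each young library came from 1 animal and each old one from 2 pooled animals.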
